A study of Bos taurus with 16 samples.

Results

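The enzymes that write, maintain and remove DNA methylation, together with the subunits of the enzyme that makes their methyl donor, were examined in skeletal muscle of newborn Hanwoo calves, a Korean native breed. The 9 genes were DNMT1, UHRF1, DNMT3A, DNMT3B, TET1, TET2, TET3, MAT2A and MAT2B. They were chosen by function, though with earlier results of these data known. Each was taken as the row whose NCBI gene ID carries that symbol in RefSeq. All 9 were found among the 34109 gene IDs of the deposited tables. RNA was sequenced from round muscle, cut from the hind leg, and from sirloin muscle, cut from the loin, of 8 male calves killed at birth before any colostrum. In mid to late pregnancy 4 dams, labelled control, received standard nutrition, given as 100%, and 4 dams, labelled treated, received overnutrition, given as 150%. Both muscles came from every calf, so that each combination of diet and muscle held 4 libraries, 16 in all. The comparison asked whether overfeeding of the dam changed transcripts of the machinery through which maternal nutrition is proposed to be recorded in the fetus. RNA alone was measured here, so no value below is a methylation level, a protein amount or an enzyme activity.

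DNA methylation is the addition of a methyl group to cytosine, mostly where it is followed by guanine. DNMT3A and DNMT3B place new marks, while DNMT1, guided to freshly copied DNA by UHRF1, restores them after each round of replication. The TET enzymes oxidise methylcytosine, which opens the way to its loss by dilution or by base excision. The methyl group comes from S-adenosylmethionine, which in tissues other than liver is made by the catalytic subunit MAT2A with its regulatory partner MAT2B. Muscle fibres carry nuclei that no longer divide, so bulk muscle mixes these with nuclei of dividing and resting cells between the fibres. Fewer cells of one type and less RNA per cell cannot be told apart in such samples.

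Each library held between 44473011 and 72446933 counted reads. Skeletal muscle markers summed to 60927 to 106083 TPM (transcript abundance scaled to gene length and to a fixed total per library), and none of the 12 was at 0 in any library. One calf stood apart. Control replicate 2 had the most reads in both muscles, its fibroblast markers reached 1471 TPM in round against at most 396 TPM in the other round libraries, and its tendon markers reached 72.7 TPM there against at most 6.77 TPM. Its deposited TPM columns also summed to 1000000, whereas the other calves' columns summed to between 999756 and 999858. Adipocyte markers were at 3777 TPM in the sirloin of treated replicate 4 and at no more than 15.0 TPM in the other libraries. Red blood cell markers ran from 3.19 to 15.9 TPM in round of control calves and from 13.4 to 31.7 TPM in treated calves, and in sirloin from 3.25 to 11.7 TPM and from 12.4 to 32.2 TPM, with SLC4A1 at 0 throughout. The part of any of these markers in the values below was not tested. Results that rest on control replicate 2 are given with and without it.

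MAT2A was the most abundant of the 9 transcripts, with a mean of 168 TPM over the 16 libraries, above 98.3% of all gene IDs. It was followed by MAT2B at 23.1 TPM, DNMT3A at 16.8 TPM, TET2 at 11.4 TPM and DNMT1 at 4.69 TPM. The remaining 4 genes were low, with UHRF1 at 1.63 TPM, TET1 at 0.812 TPM, DNMT3B at 0.533 TPM and TET3 at 0.521 TPM. In the upper part of this order each gene was above the next in 13 to 16 of the 16 libraries. UHRF1 was above TET1 in 10 libraries, TET1 above DNMT3B in 11 and DNMT3B above TET3 in 9, so these low neighbours were not separated from each other beyond their spread. DNMT3B also had the smallest count, 24 reads in round of treated replicate 4, for which the exact 95% Poisson interval is 15.4 to 35.7 reads and covers counting error alone.

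Within each family 1 gene carried most of the transcript. DNMT3A made up 70.9% to 83.0% of the summed TPM of the DNA methyltransferases, DNMT1 14.1% to 27.2% and DNMT3B 1.00% to 4.06%. TET2 made up 72.2% to 95.2% of the summed TET transcripts, TET1 1.61% to 24.1% and TET3 1.83% to 9.57%. The highest share of TET1 was in the sirloin of control replicate 2. MAT2A exceeded MAT2B by 3.58-fold to 16.2-fold, with a median of 7.01-fold. DNMT3L and DPPA3, which are best known from germ cells and early embryos and act on DNMT3A, DNMT3B or UHRF1, had no read in any library. Each count of 0 allows up to 3 reads per library.

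**Figure D1:**
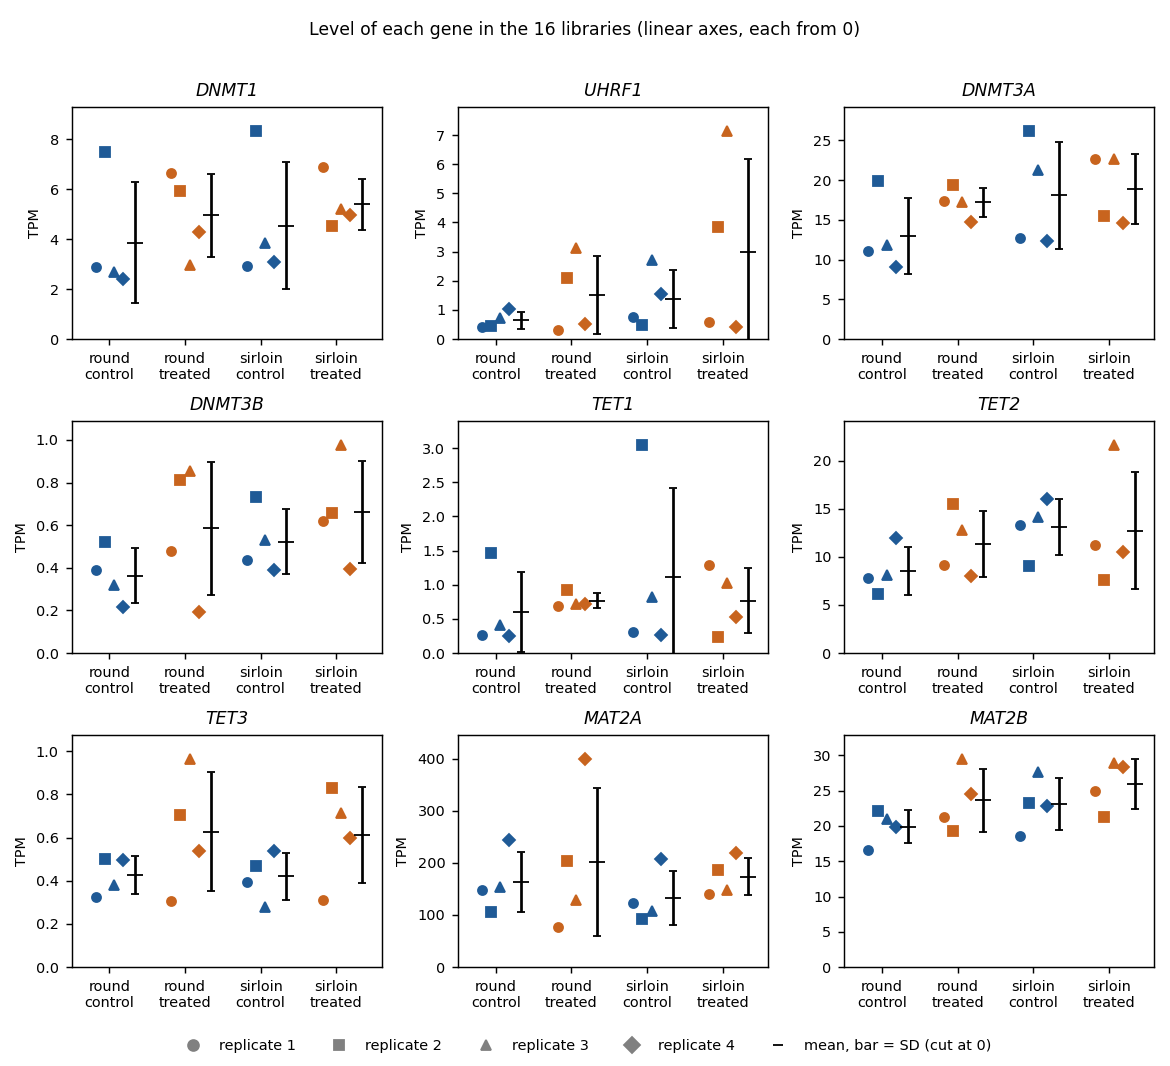
TPM of the 9 genes (vertical axes, linear and starting at 0) in the 4 combinations of muscle and diet, with 1 point per library, the marker shape giving the replicate number, blue for control and orange for treated dams, and black bars for the mean and SD of 4 libraries. The diet groups overlap in every panel, and control replicate 2 (blue squares) is the highest control value of DNMT1, DNMT3A, DNMT3B and TET1 in both muscles.

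In round muscle, none of the 9 genes passed the diet test. With edgeR's quasi-likelihood test, adjusted over 21677 genes, 0 of 9 had an adjusted p under 0.05, against 0.0185% of all genes tested, and 0 of 9 had an unadjusted p under 0.05, against 4.41% of all genes. DESeq2 also gave 0 of 9 by either threshold, against 0.215% and 4.04% of all genes. All 9 fitted log2 fold changes were above 0, from 0.16 for MAT2B to 1.07 for UHRF1, with a median of 0.33 beside a median of 0.02 over all genes tested. The smallest unadjusted p among them was 0.125 and the smallest adjusted p 0.864. Control and treated calves overlapped for each of the 9 genes, while 1.82% of all genes did not overlap.

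DNMT1, the maintenance methyltransferase, was at 2.89, 7.50, 2.68 and 2.39 TPM in round of control replicates 1 to 4 and at 6.67, 5.93, 2.96 and 4.31 TPM in treated replicates 1 to 4. In TPM a single control calf was above all treated calves, and the other 3 control calves were below all of them. In reads scaled to library size by edgeR (CPM), control replicate 2 was at 21.2, below treated replicate 1 at 21.6. Control replicate 1, at 10.6 CPM, was above treated replicate 3, at 9.13 CPM. The log2 fold change was 0.31 ± 0.36 (SE), with a 95% interval of -0.47 to 1.09.

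UHRF1, which recruits DNMT1, was at 0.399, 0.442, 0.712 and 1.03 TPM in control calves and at 0.320, 2.09, 3.13 and 0.511 TPM in treated calves. A pair of treated calves held the high values and the other pair lay among the controls or below them. Its log2 fold change of 1.07 ± 0.65 (SE) was the largest of the 9 and also the least certain, with an interval of -0.35 to 2.49, that is 0.787-fold to 5.63-fold.

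DNMT3A, the main enzyme for new marks, was at 11.0, 19.9, 11.9 and 9.04 TPM in control calves and at 17.4, 19.3, 17.2 and 14.8 TPM in treated calves. Again control replicate 2 exceeded every treated calf and the other controls were below all of them. The log2 fold change was 0.34 ± 0.23 (SE), interval -0.16 to 0.85, and the unadjusted p was 0.163. DNMT3B ran from 0.215 to 0.522 TPM in control and from 0.193 to 0.855 TPM in treated calves, with a log2 fold change of 0.55 and an interval of -0.50 to 1.60.

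TET1 was at 0.269, 1.47, 0.417 and 0.254 TPM in control calves and at 0.683, 0.928, 0.721 and 0.724 TPM in treated calves. The treated calves lay close together, above 3 of the controls and below control replicate 2. The fitted log2 fold change was 0.33 ± 0.47 (SE), interval -0.70 to 1.35. TET2, the abundant member of the family, was at 7.82, 6.10, 8.07 and 11.98 TPM in control calves and at 9.12, 15.5, 12.7 and 7.96 TPM in treated calves, with a log2 fold change of 0.28 and an interval of -0.36 to 0.91. TET3 ran from 0.325 to 0.499 TPM in control and from 0.307 to 0.962 TPM in treated calves, with a log2 fold change of 0.45 and an interval of -0.35 to 1.26.

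MAT2A was at 148, 107, 154 and 244 TPM in control calves and at 76.1, 203, 129 and 399 TPM in treated calves. Treated calves thus held both the lowest and the highest value of this transcript in round. The log2 fold change was 0.18 ± 0.47 (SE), interval -0.84 to 1.205. MAT2B was steadier, from 16.6 to 22.2 TPM in control and from 19.3 to 29.4 TPM in treated calves, with a log2 fold change of 0.16 and an interval of -0.34 to 0.65.

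In sirloin muscle none of the 9 genes passed either. The same edgeR test over 21776 genes gave 0 of 9 with an adjusted p under 0.05, against 0.00918% of all genes, and 0 of 9 with an unadjusted p under 0.05, against 3.91%. DESeq2 gave 0 of 9 by either threshold, against 0.0607% and 3.26% of all genes. Here 5 fitted values were above 0 and 4 below, from -0.65 for TET1 to 0.93 for UHRF1, and the smallest adjusted p was 0.906. The diet groups overlapped for all 9 genes, against 1.63% of all genes without overlap.

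DNMT1 was at 2.93, 8.32, 3.83 and 3.08 TPM in sirloin of control calves and at 6.88, 4.54, 5.21 and 4.98 TPM in treated calves. As in round, control replicate 2 was the highest of all in TPM and the other controls were below every treated calf. In CPM control replicate 3, at 13.0, was above treated replicate 2, at 12.6. Its log2 fold change was 0.08 ± 0.32 (SE), interval -0.62 to 0.79. UHRF1 was at 0.764, 0.486, 2.72 and 1.56 TPM in control calves and at 0.591, 3.84, 7.12 and 0.430 TPM in treated calves. The same treated pair as in round was high, and the interval of its log2 fold change was again wide, -0.91 to 2.77 around 0.93.

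DNMT3A was at 12.7, 26.1, 21.3 and 12.3 TPM in control calves and at 22.7, 15.5, 22.6 and 14.6 TPM in treated calves, with a log2 fold change of -0.10 and an interval of -0.72 to 0.52. Each diet had a higher and a lower pair of calves. DNMT3B had a log2 fold change of 0.15, interval -0.67 to 0.98, with 0.3898 to 0.733 TPM in control and 0.394 to 0.974 TPM in treated calves.

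TET1 was at 0.314, 3.04, 0.827 and 0.270 TPM in control calves and at 1.29, 0.234, 1.02 and 0.521 TPM in treated calves. Control replicate 2 was above every other sirloin library, and the log2 fold change of -0.65 had an interval of -2.28 to 0.99. TET2 was at 13.3, 9.10, 14.1 and 16.01 TPM in control calves and at 11.2, 7.62, 21.6 and 10.5 TPM in treated calves, with a log2 fold change of -0.22 and an interval of -0.95 to 0.50. TET3 had a log2 fold change of 0.36 and an interval of -0.41 to 1.14.

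MAT2A was at 124, 93.1, 107 and 207 TPM in control calves and at 141, 186, 148 and 218 TPM in treated calves, with a log2 fold change of 0.21 and an interval of -0.38 to 0.80. In TPM control replicate 4 lay within the treated range and the other controls below it. In CPM treated calves ran from 223 to 339, with control replicate 1 within that range at 233 and control replicate 4 above it at 348. MAT2B had the narrowest interval of the 9 in sirloin, -0.45 to 0.42 around a log2 fold change of -0.01, that is 0.733-fold to 1.34-fold. On the TPM scale its values were 18.5 to 27.7 TPM in control and 21.3 to 29.0 TPM in treated calves, and the fitted value turned to 0.17 there, as that of DNMT3A turned to 0.10, on a scale where the median of all genes was itself at 0.14.

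With the counts of both muscles added up for each calf, 0 of 9 genes had an adjusted p under 0.05 in edgeR, against 0.00437% of the 22877 genes tested, and 0 of 9 had an unadjusted p under 0.05, against 3.85%. DESeq2 again gave 0 of 9 by either threshold, against 0.205% and 3.39%. UHRF1 was again highest, at a log2 fold change of 0.88 with an interval of -0.81 to 2.56, and TET1 was lowest, at -0.26 with an interval of -1.51 to 0.99. The intervals of MAT2B (-0.39 to 0.48), DNMT3A (-0.45 to 0.57), TET2 (-0.64 to 0.55), DNMT1 (-0.50 to 0.85) and MAT2A (-0.66 to 0.92) did not reach a 2-fold change in either direction. The difference of the diet effect between the muscles was tested within calf. In edgeR 0 of 9 genes had an adjusted p under 0.05, against 0.00437% of all genes, and 0 of 9 an unadjusted p under 0.05, against 3.78%. The smallest unadjusted p was 0.0851 for DNMT3A, whose log2 diet effect was lower in sirloin by an estimate of -0.42 with an interval of -0.90 to 0.07. For this difference DESeq2 gave 0 of 9 by either threshold, against 0.0175% and 4.4%.

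**Figure D2:**
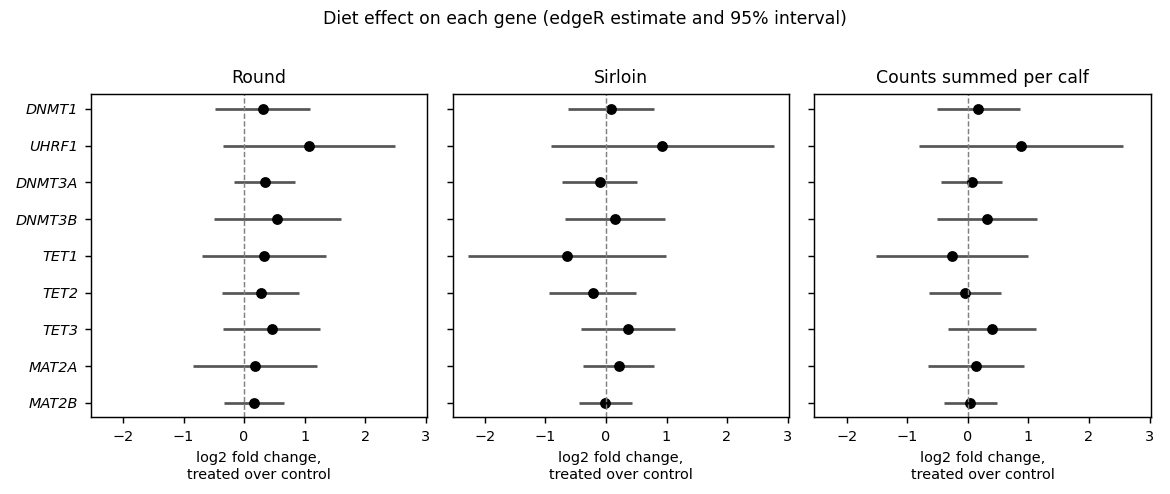
Log2 fold change of each of the 9 genes, treated over control (horizontal axis), as fitted by edgeR in round, in sirloin and on the counts summed per calf, with points for the estimate and lines for the 95% interval. Every interval spans 0, and those of UHRF1 and TET1 are the widest in sirloin and in the summed counts.

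The diet estimates of DNMT1, DNMT3A and TET1 depended on control replicate 2. Leaving this calf out was 1 of 8 fits that each omitted 1 calf, and it was singled out after the values had been seen. In round, TET1 then had a log2 fold change of 1.08 (interval 0.40 to 1.76, unadjusted p = 0.00508 in edgeR) and DNMT3A of 0.50 (interval 0.01 to 0.98, unadjusted p = 0.0444). These 2 of 9 genes had an unadjusted p under 0.05, against 5.38% of all genes in that fit, and neither passed after adjustment over all genes (adjusted p = 0.788 for both), whereas 0.0047% of all genes did. In the remaining round libraries TET1 ran from 0.254 to 0.417 TPM in control and from 0.683 to 0.928 TPM in treated calves, and DNMT3A from 9.04 to 11.9 TPM and from 14.8 to 19.3 TPM. In CPM TET1 ran from 2.06 to 3.22 in control and from 5.12 to 6.01 in treated calves, and DNMT3A from 57.5 to 71.6 and from 86.7 to 102. Both genes were therefore higher in every treated calf on either scale. In CPM this held for 2.99% of all genes.

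DNMT1 moved likewise without separating in reads scaled to library size by edgeR (CPM). Without control replicate 2 its log2 fold change was 0.67 in round (unadjusted p = 0.0530), 0.49 in sirloin (unadjusted p = 0.0730) and 0.55 in the summed counts (interval 0.02 to 1.08, unadjusted p = 0.0432 and adjusted p = 0.786 in edgeR). The last was the 1 of 9 genes with an unadjusted p under 0.05 in the summed counts, against 5.21% of all genes, while 0.00444% passed after adjustment. On the TPM scale DNMT1 of the remaining calves was apart in both muscles, with 2.39 to 2.89 TPM against 2.96 to 6.67 TPM in round and 2.93 to 3.83 TPM against 4.54 to 6.88 TPM in sirloin. The share of all genes apart in TPM was not counted, so this separation has no background. With all calves the median log2 fold change of all genes on the TPM scale was 0.08 in round and 0.14 in sirloin. In CPM the sirloin groups overlapped, at 9.59 to 13.0 CPM and 12.6 to 20.2 CPM, as did the round groups, at 8.54 to 10.6 CPM and 9.13 to 21.6 CPM. In sirloin the estimate of TET1 turned from -0.65 to 0.51 without this calf, with an interval of -0.83 to 1.84. In round, fibroblast and tendon markers were highest in this calf, as given above. In sirloin its tendon markers were highest too, at 11.9 TPM against at most 5.63 TPM, while its fibroblast markers, at 443 TPM, were below the 613 TPM of treated replicate 4.

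The estimates of UHRF1 rested on treated replicate 3, the calf with its highest levels. Without this calf its log2 fold change was 0.36 in round (interval -1.02 to 1.73), 0.000236 in sirloin (interval -1.79 to 1.79) and 0.044 in the summed counts. With all calves, limma-voom gave 0.72, 0.39 and 0.46. Over the 8 fits it ran from 0.36 to 1.44 in round, from 0.000236 to 1.53 in sirloin and from 0.044 to 1.33 in the summed counts. In round its unadjusted p was 0.0355 in edgeR without treated replicate 1 (log2 fold change 1.40, adjusted p = 0.949). DNMT1 in round ran from 0.094 without treated replicate 1 to 0.67, and TET1 in round from 0.098 without control replicate 4 to 1.08, both highest without control replicate 2. TET2 in sirloin had an unadjusted p of 0.0446 without treated replicate 3 (log2 fold change -0.62, adjusted p = 0.875). MAT2A in round changed sign without treated replicate 4, from 0.18 to -0.48, and was at -0.04 without control replicate 2. Across the 8 fits 0 of 9 genes had an adjusted p under 0.05 in either muscle or in the summed counts.

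**Figure D3:**
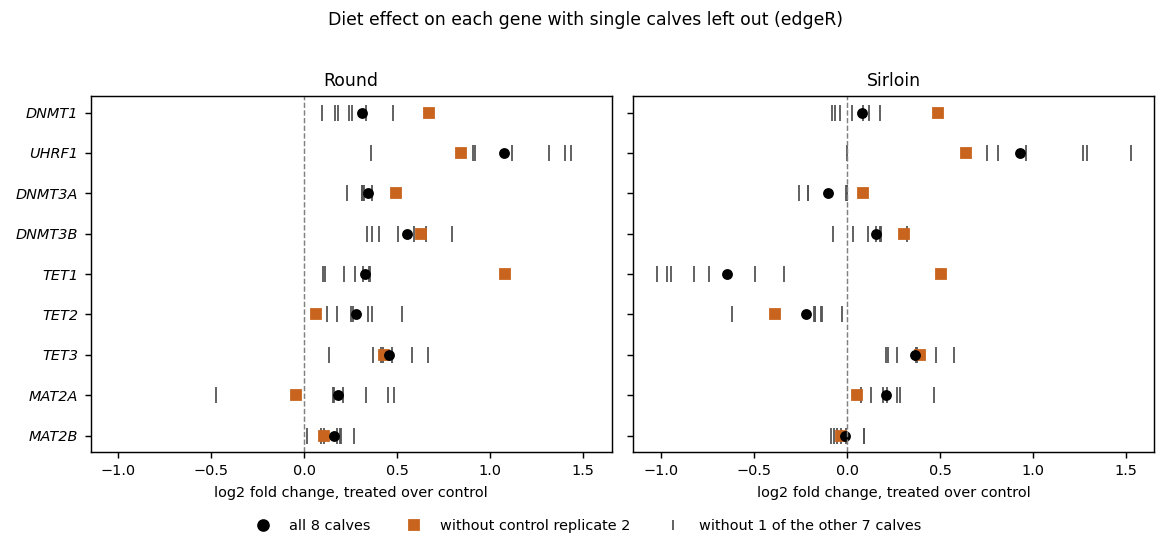
Log2 fold change, treated over control (horizontal axis), for each gene in round and sirloin, with all 8 calves (black circles), without control replicate 2 (orange squares) and without each of the other 7 calves (grey ticks). The square is the rightmost mark of DNMT1, DNMT3A and TET1 in both panels, and TET1 in sirloin is on the right of 0 in that fit alone.

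The muscles of the same calf were then compared, with calf as a block. UHRF1 was the gene of the 9 with the largest difference. Its level was higher in sirloin than in round in 7 of 8 calves, rising from 0.712 to 2.72 TPM in control replicate 3 and from 3.13 to 7.12 TPM in treated replicate 3, and the exception was treated replicate 4 with 0.511 and 0.430 TPM. The log2 fold change, sirloin over round, was 0.71 ± 0.21 (SE), interval 0.25 to 1.18, with an unadjusted p of 0.00554 and an adjusted p of 0.182 in edgeR, so that it did not pass. DESeq2 gave an adjusted p of 0.0435, limma-voom 0.118, and edgeR without treated replicate 4, whose sirloin held the adipocyte markers, 0.0436 with a log2 fold change of 0.87. That fit without treated replicate 4 called 368 of 22567 genes, and 13.9% of all genes had an unadjusted p under 0.05. Without the calf block the unadjusted p was 0.118. As a background with all calves, 0.533% of the 22877 genes had an adjusted p under 0.05 and 11.2% an unadjusted p under 0.05 in edgeR. In DESeq2 3.59% passed, with 12.3% unadjusted. In RefSeq's annotation, used here only for which genes lie beside each other, UHRF1 overlaps ARRDC5, which had 9 to 44 reads per library where UHRF1 had 46 to 1052.

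None of the other 8 genes had an unadjusted p under 0.05 between the muscles. DNMT3B (log2 fold change 0.33, interval -0.08 to 0.74), TET2 (0.30, interval -0.08 to 0.69) and MAT2B (0.09, interval -0.10 to 0.28) were each higher in sirloin in 7 of 8 calves. DNMT1 (0.13, interval -0.14 to 0.41) and DNMT3A (0.21, interval -0.05 to 0.48) were higher there in 6 of 8 calves. MAT2A was lower in sirloin in 6 of 8 calves, at a log2 fold change of -0.22 with an interval of -0.57 to 0.13. TET2 had an exception of unusual size. In treated replicate 2 it was at 15.5 TPM in round and 7.62 TPM in sirloin, and without that calf its log2 fold change was 0.49 with an unadjusted p of 8.87e-04 and an adjusted p of 0.0803 in edgeR.

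UHRF1 is often read as a gene of dividing cells, so the cell division list was set beside it. Of its 18 genes, 1 was higher and 4 were lower in sirloin with an unadjusted p under 0.05, against 11.2% of all genes in either direction, and 0 had an adjusted p under 0.05 in edgeR, against 0.533%. The median log2 fold change was -0.43, beside 0.00 over all genes. TOP2A, which untangles replicated DNA, and MKI67, a proliferation marker, were lower in sirloin in 8 of 8 calves, with log2 fold changes of -1.06 (unadjusted p = 6.41e-04, adjusted p = 0.0711) and -0.85 (unadjusted p = 0.00774, adjusted p = 0.209). MCM7, a subunit of the replicative helicase, was higher in sirloin at 0.29 (unadjusted p = 0.0270, adjusted p = 0.351). The list was mixed in sign, with 6 estimates above 0, MCM2, MCM3, MCM4, MCM5, MCM7 and CCNB2, and 12 below. TOP2A, MKI67 and these genes were picked after their values had been seen. TOP2A and MKI67 were scarce, at no more than 0.679 and 0.379 TPM in any library, whereas the 5 MCM genes named had highest values of 3.44 to 53.9 TPM. Signs did not follow abundance throughout. MCM6, at 4.21 to 13.5 TPM, was at -0.11 (interval -0.41 to 0.19), and CCNB2, at no more than 0.484 TPM, was at 0.46 (interval -2.065 to 2.99). The intervals of MCM2, MCM3, MCM4 and MCM5 also spanned 0. No difference between UHRF1 and any of these genes was tested.

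**Figure D4:**
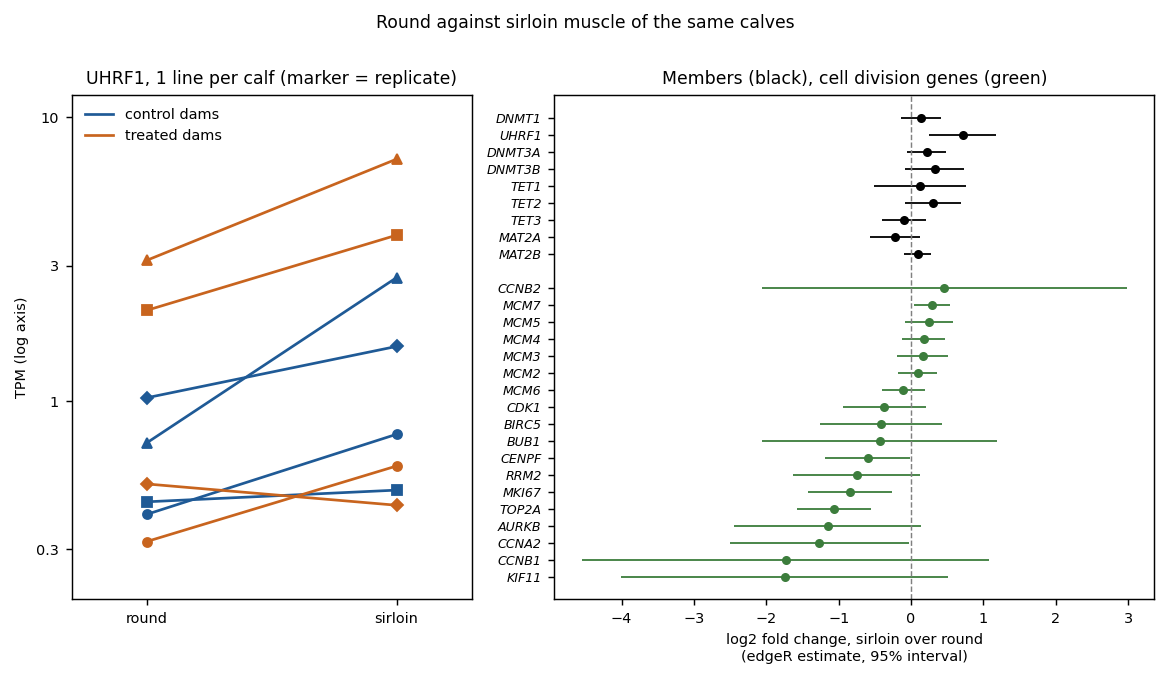
Left, TPM of UHRF1 on a log axis in round and sirloin, with 1 line per calf, blue for control and orange for treated dams, 7 of 8 lines going up. Right, log2 fold change of sirloin over round (horizontal axis, edgeR estimate and 95% interval) for the 9 genes in black and the 18 cell division genes in green, with UHRF1 as the black line that lies wholly above 0.

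Levels in the muscles of the same calf were then set beside each other. On log2 CPM, Pearson's r between round and sirloin over the 8 calves was 0.904 for UHRF1 (Spearman's rho 0.810), 0.859 for MAT2B (0.905), 0.841 for DNMT3B (0.905), 0.825 for TET3 (0.929), 0.796 for MAT2A (0.857) and 0.768 for DNMT1 (0.690). These 6 of 9 genes had an unadjusted exact permutation p of r under 0.05 (0.00461 to 0.0323), against 32.3% of the 12315 genes with a mean of at least 1 CPM, whose median r was 0.590. After adjustment over all these genes 0 of 9 passed, with adjusted exact permutation p values of 0.0671 to 0.129 for r and of 0.0735 to 0.211 for rho in these 6 genes, while 1.96% of all genes passed for r. With the 2 calves farthest from the median in round left out, r of the first 5 was 0.725, 0.767, 0.563, 0.789 and 0.885 in the same order, and that of DNMT1 fell to 0.271 without control replicate 2 and treated replicate 1, so that this value rested on those calves. TET1 (r 0.594, rho 0.333), DNMT3A (r 0.548, rho 0.619) and TET2 (r 0.239, rho 0.238) had adjusted exact permutation p values of 0.239, 0.281 and 0.660 for r and of 0.574, 0.271 and 0.699 for rho. Without control replicate 2 and treated replicate 2 the r of TET2 was 0.708, and without their own 2 farthest calves those of TET1 and DNMT3A were 0.352 and 0.072. UHRF1 had a higher r than 95.04% of the 12315 genes and TET2 than 18.0%. Calves of both diets were pooled in these values.

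The widest spread was that of UHRF1. Averaged over both muscles it was at 5.13 TPM in treated replicate 3 and at 0.455 TPM in treated replicate 1, 11.3-fold apart, and over single libraries the highest was 22.3-fold above the lowest. Its SD on the log2 scale within diet groups was 1.16 in round and 1.58 in sirloin, larger than in 95.3% and 98.2% of the genes with a mean of at least 1 CPM, whose median SD was 0.44 and 0.41. TET1 followed in sirloin with an SD of 1.35, larger than in 97.0% of genes, and MAT2A in round with 0.84, larger than in 87.6%. MAT2B had one of the smaller spreads, 0.26 in round and 0.22 in sirloin, exceeding 14.0% and 12.9% of genes. DNMT3A had 0.26 in round, exceeding 13.7% of genes, and 0.43 in sirloin.

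**Figure D5:**
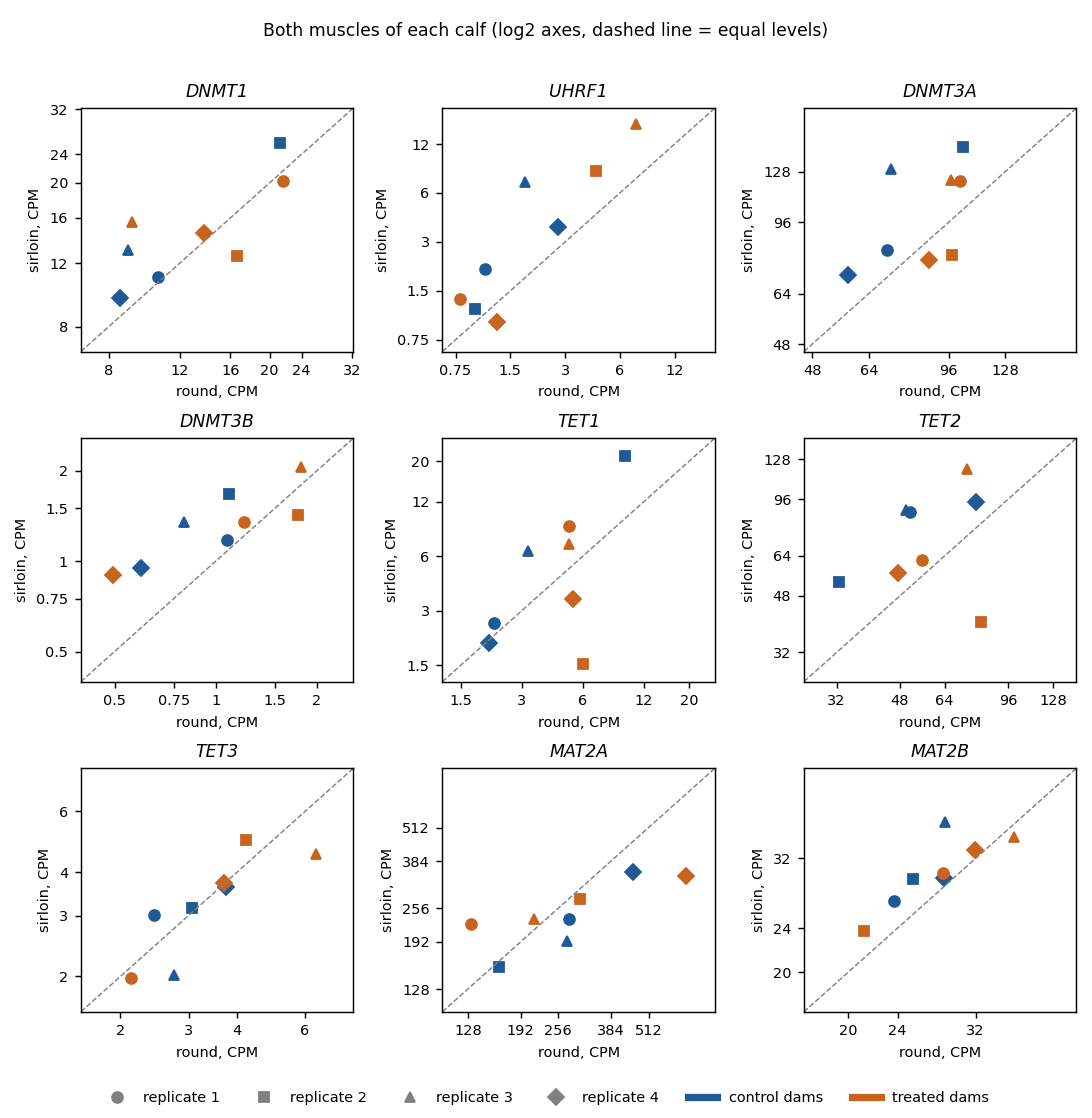
CPM in round (horizontal axis) and sirloin (vertical axis) of the same calf for each gene, on log2 axes, with 1 point per calf, the marker giving the replicate number, blue for control and orange for treated dams, and a dashed line of equal levels. Levels of UHRF1, MAT2B, DNMT3B and TET3 rise together in the muscles over the 8 calves, with UHRF1 above the dashed line in 7 of 8. Treated replicate 2 (orange square) lies far below that line for TET1 and TET2.

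Genes of the neighbouring steps were followed in 6 lists. In the list of methyl donor supply, the folate and methionine cycles, 0 of 30 genes had an adjusted p under 0.05 for diet in either muscle or in the summed counts in edgeR, against 0.0185% of all genes in round, 0.00918% in sirloin and 0.00437% in the summed counts. In round an unadjusted p under 0.05 was reached by 2 genes with positive and 2 with negative estimates, against 4.41% of all genes in either direction, and the median log2 fold change was 0.12, beside 0.02 over all genes. AMD1, which draws S-adenosylmethionine into polyamine synthesis, had the smallest p there, at 54.2 ± 16.3 TPM in control and 29.7 ± 8.17 TPM in treated calves (SD, n = 4 each), with a log2 fold change of -0.99 (unadjusted p = 0.00735, adjusted p = 0.864 in edgeR). In sirloin AMD1 was at 37.4 ± 21.2 TPM in control and 34.6 ± 13.3 TPM in treated calves. AHCY, which clears the product that inhibits methyltransferases, was the most abundant, with a mean of 222 TPM, and GAMT, which uses S-adenosylmethionine to make creatine, followed at 102 TPM.

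Between the muscles, the mitochondrial folate enzymes MTHFD2 and ALDH1L2 of this list passed in edgeR and were lower in sirloin, with log2 fold changes of -2.30 ± 0.40 (adjusted p = 0.0233) and -1.80 ± 0.29 (adjusted p = 0.0182). MTHFD2 had means of 10.5 and 11.0 TPM in round and of 1.46 and 3.39 TPM in sirloin of control and treated calves, respectively. Without treated replicate 1 neither passed, and MTHFD2 also failed without control replicate 2 or 4, with little change in the estimates.

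In the list of demethylation and base excision 0 of 19 tested genes passed for diet, against the same shares of all genes, and 1 had an unadjusted p under 0.05 in round, against 4.41%. This was GADD45B, a stress-induced gene tied to demethylation, at a log2 fold change of -0.77 (unadjusted p = 0.0497, adjusted p = 0.864). Its sirloin levels were 34.4 ± 11.8 TPM in control and 35.9 ± 10.1 TPM in treated calves. IDH2, a mitochondrial source of the 2-oxoglutarate that TET enzymes need, was at 428 ± 26.5 TPM in round of control and 667 ± 168 TPM of treated calves (unadjusted p = 0.0555, adjusted p = 0.864). In sirloin IDH2 was at 541 ± 53.7 TPM in control and 525 ± 88.7 TPM in treated calves. APOBEC2, a muscle protein of the cytidine deaminase family, was the most abundant of this list with a mean of 583 TPM. No reader of methylated DNA (8 genes) had an unadjusted p under 0.05 for diet in either muscle. Of the partners of the methyltransferases (14 tested), CDCA7, needed with HELLS for methylation of repeats, was at 1.18 ± 0.08 TPM in round of control and 2.65 ± 1.53 TPM of treated calves (unadjusted p = 0.0394, adjusted p = 0.864). In sirloin CDCA7 was at 1.63 ± 0.90 TPM in control and 2.49 ± 0.82 TPM in treated calves. N6-methyladenosine on RNA is a mark that takes part in adjusting MAT2A transcript to methionine supply. Of 7 genes listed for N6-methyladenosine and MAT2A control, 0 had an unadjusted p under 0.05 for diet. METTL3, a writer of N6-methyladenosine on RNA in general, had log2 fold changes of 0.28 in round and 0.37 in sirloin.

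Several further genes of these lists were among the smallest unadjusted p values for diet or the most abundant. They were ALDH1L1, SHMT2, BHMT and CHDH of methyl donor supply, IDH1 and NEIL3 of demethylation, the readers ZBTB4, ZBTB38, MBD2 and MBD3, and the partners SETDB1, CDCA7L, TRIM28, EHMT1 and HDAC2. In the last lists they were WTAP, ALKBH5 and YTHDC1 of N6-methyladenosine and MCM6, MCM7 and BUB1 of cell division. The adjusted p for diet was 0.864 or more for each of them in edgeR.

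Cell division genes had a median log2 fold change of 0.32 in round and 0.35 in sirloin between the diets, beside 0.02 and 0.03 over all genes, and 0 of 18 passed in edgeR in either muscle, against 0.0185% and 0.00918% of all genes. CCNB2, a mitotic cyclin, had no read in the 4 round libraries of control calves and a mean of 0.224 TPM, 9 to 16 reads, in treated calves. Its adjusted p in round was 0.618 in edgeR and 0.0378 in DESeq2, where 0.215% of all genes passed. In sirloin CCNB2 had 0 to 7 reads in control and 0 to 20 reads in treated calves, so the groups were not apart there.

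The 3 genes whose levels ran most closely with each of the 9 were found among 12315 genes, by Pearson's r over 16 libraries on log2 CPM centred within muscle, as a description without a test, since both libraries of a calf are included and the most alike genes of so many always have a high r. DNMT1 was closest to ACBD4, ARHGAP19 and ACP2 (0.951 to 0.946), DNMT3A to CHD8, AMER1 and TET1 (0.924 to 0.917), and TET1 to PGAP4, DNMT3A and CENPBD1 (0.920 to 0.898). UHRF1 was closest to TSTD2, LOC787554 and GIGYF1 (0.916 to 0.909). DNMT3B was closest to NDST1, SFT2D2 and URGCP (0.929 to 0.873), TET2 to TNKS2, MYOZ2 and ACTN2 (0.845 to 0.823) and TET3 to PTPRU, LRCH1 and LMBR1 (0.818 to 0.806). MAT2A was closest to LUC7L3, LOC100335177 and TADA1 (0.911 to 0.888), and MAT2B to CPEB3, ANKRD54 and CCDC66 (0.888 to 0.854).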

How the data were processed

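RNA-seq of 16 libraries was analysed from the deposited tables of whole-number counts per gene and of TPM. The sources used here describe the upstream steps differently. Per the labels, poly(A) RNA was selected, and the submitters' processing notes name FastQC, Trimmomatic, STAR, featureCounts and DESeq2 with the ARS-UCD1.2 build, whereas the study's methods describe removal of ribosomal and globin RNA, HISAT2 and StringTie. Which steps made the counts, and how strand and reads with several matches were treated, could not be settled from these sources. The authors' TPM are scaled per gene length and library, and the deposited counts are not normalized. Tables with the authors' own fold changes, p-values and q-values were not used.

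Gene IDs were matched to RefSeq symbols (30762 of 34109, 90.2%), and PAX7 was not matched. Counts were fitted in edgeR 4.0.16 (R 4.3.3) with TMM scaling, estimateDisp and quasi-likelihood tests on genes with at least 1 count in any library of the fit, two-sided, with Benjamini-Hochberg adjustment over all genes tested and a threshold of 0.05. Standard errors and 95% intervals were taken from the F statistic and its degrees of freedom. Diet was tested in round, in sirloin and on counts summed per calf. The muscle difference and the difference of diet effects between muscles had calf as a block, because both labels of a calf carry the same number. Deviations of the pair of libraries of a calf from their group means correlated at 0.311 to 0.765. Replicates are separate calves. Alternatives were DESeq2 1.42.0, limma-voom 3.58.1, RLE scaling, filterByExpr, log2(TPM + 0.1) and log2(TPM + 1) with limma, all libraries in 1 fit, exact permutation tests, the block changed, and each calf left out. Correlations between the muscles over calves had exact permutation tests, adjusted over all genes with a mean of at least 1 CPM, a step added after the data had been seen. The fits were tested on simulated counts with 200 changed genes. The 9 genes, the 6 lists and the marker lists were chosen with earlier results of these data known. Beside the 9 genes, those named were list genes with an adjusted p under 0.05 (up to 5 per list and comparison), the 2 of smallest p per list and diet comparison, the 2 most abundant per list and the 3 most alike each of the 9. TOP2A and MKI67 were named outside this rule. A few list genes that met the rule are not reported here. No sequence or coordinate is given, since no genome of the authors' build was used here.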

Additional observations from a re-analysis of the deposited data

Results flagged for a closer look

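Each of the 9 genes was screened in each of the 4 groups of 4 libraries, 36 groups in all, for a highest or lowest library that lay far from the other 3 by Dixon's criterion, which chance meets in about 1 of 20 groups. The 3 cases found came from the 2 libraries of control replicate 2. In round this calf was the highest control for DNMT1, at 21.2 reads scaled to library size by edgeR (CPM), and for TET1, at 9.69 CPM. In sirloin it was the lowest control for TET2, at 52.9 CPM. The same calf had the deepest libraries and the highest fibroblast and tendon marker levels of round muscle, and the part of either in these values was not tested.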

How the results depend on the processing

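The absence of called members held in every alternative run for the 3 diet comparisons and for the difference of the diet effect between the muscles, 0 of 9 genes each time. Between the muscles 1 of 9 genes, UHRF1, was called in DESeq2, against 3.59% of all genes. With calves left out in turn 0 to 1 of 9 were called, the 1 without treated replicate 4, where 368 of 22567 genes were called. Control replicate 2 and treated replicate 4 were also left out together, a choice made after seeing the data. Members with an unadjusted p under 0.05 then numbered 2 in round and 1 in the summed counts, against 7.63% and 5.81% of all genes. In that setting the summed counts had 4 called genes and round and sirloin 0. With each calf left out in turn, members with an unadjusted p under 0.05 numbered 0 to 2 in round, 0 to 1 in sirloin and 0 to 1 in the summed counts. The share of all genes ran from 3.21% to 5.87%, from 2.91% to 4.96% and from 2.69% to 5.21%, respectively. Such members numbered 0 to 1 for the difference of the diet effects, against 2.61% to 5.18% of all genes. Between the muscles they numbered 1 to 4, against 8.49% to 13.9%. With all calves, such members between the muscles numbered 4 on log2(TPM + 0.1) and on log2(TPM + 1), against 14.7% and 14.6% of all genes. They numbered 2 on log2(TPM + 0.1) with low genes left out, against 17.1%, and 0 without the calf block, against 6.33%.

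Over all genes, 4 were called in round, 2 in sirloin, 1 in the summed counts, 1 for the difference and 122 between the muscles. DESeq2 called 46, 13, 46, 4 and 822. Limma-voom called 1 in round and 0 in sirloin and the summed counts. Log2(TPM + 0.1) called 1 in round, 1 in sirloin, 0 for the difference and 76 between the muscles, log2(TPM + 1) called 0 in the first 4 and 64 between the muscles, and log2(TPM + 0.1) with low genes left out called 1 in sirloin, 2 in the summed counts and 2 for the difference. With the replicate block, although the numbers do not pair control with treated calves (correlations of -0.04 to 0.29 in round and -0.28 to 0.27 in sirloin), round had 2 called genes and sirloin and the summed counts 0. Without the calf block, so that the muscles of a calf were not paired, the difference had 0 and the muscle comparison 14. With each calf left out the counts ran from 0 to 3, 0 to 1, 0 to 2, 0 to 2 and, between the muscles, from 44 to 368, the last without treated replicate 4.

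Estimates whose sign turned all belonged to genes that were not called. On log2(TPM + 0.1), with and without low genes, DNMT3A in sirloin was at 0.10, MAT2B in sirloin at 0.17, TET2 in the summed counts at 0.14, TET1 there at 0.28, TET3 for the difference at 0.020, ALKBH5 in sirloin at 0.00437 and WTAP in the summed counts at 0.00274. On log2(TPM + 1) the first 4 were at 0.10, 0.16, 0.13 and 0.037 and the last 2 at 0.00430 and 0.00245. The median of all genes shifted by up to 0.18 on the TPM scale, in sirloin. TET1 in the summed counts was at 0.080 in limma-voom and 0.24 with the replicate block, which changed no other sign of the 9 genes. Without control replicate 2 and treated replicate 4, MAT2A was at -0.68 in round, -0.071 in sirloin and -0.39 in the summed counts, MAT2B at -0.024 in the summed counts, DNMT3A at 0.20 in sirloin, TET1 at 0.66 in sirloin and 0.78 in the summed counts, IDH1 at -0.34 in sirloin and ALKBH5 at 0.080. The cause of these turns was not tested.

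With each calf left out in turn, the log2 fold change in round ran from -0.48 to 0.48 for MAT2A. In sirloin it ran from -0.078 to 0.49 for DNMT1, -0.26 to 0.087 for DNMT3A, -0.073 to 0.32 for DNMT3B, -1.02 to 0.51 for TET1, -0.084 to 0.092 for MAT2B and -0.39 to 1.84 for IDH1. In the summed counts it ran from -0.000776 to 0.55 for DNMT1, -0.076 to 0.22 for DNMT3A, -0.55 to 0.69 for TET1, -0.27 to 0.10 for TET2, -0.22 to 0.43 for MAT2A, -0.054 to 0.16 for MAT2B and -0.057 to 1.51 for IDH1. For the difference of the diet effects it ran from -0.38 to 0.018 for DNMT1, -0.47 to 0.090 for UHRF1, -0.19 to 0.10 for TET3 and -0.00710 to 0.59 for MAT2A, and between the muscles from -0.038 to 0.40 for TET1. With 4 calves per diet, exact permutation tests on each member could not go below p = 0.0286, and intervals such as that of UHRF1 leave large differences undetected.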

Other observations

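Over the 16 libraries, centred within muscle, the 9 genes formed 36 pairs, and the closest was DNMT3A with TET1, a writer and an eraser of methylation, at r = 0.917. DNMT1 ran with TET1 at 0.783 and with DNMT3A at 0.741, and DNMT3A with DNMT3B at 0.604. UHRF1 did not follow DNMT1, the enzyme it recruits (r = -0.45), and its closest members were TET3 at 0.588 and TET2 at 0.549. MAT2A ran opposite to the methyltransferases, at r = -0.67 with DNMT3B, -0.62 with DNMT3A and -0.52 with DNMT1, and at 0.06 with its partner MAT2B. With the 2 libraries of control replicate 2 left out, a choice made after the data had been seen, DNMT3A with TET1 was at 0.907, DNMT1 with TET1 at 0.648, DNMT1 with UHRF1 at -0.30 and MAT2A with DNMT3B at -0.69, with DNMT3A at -0.53 and with DNMT1 at -0.34. These are descriptions over libraries that share calves, scaling and depth, and they were not tested.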
